A study of Mus musculus with 24 samples.

Results

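The genes described are 5 CXC chemokines (Cxcl2, Cxcl3, Cxcl10, Cxcl16 and Pf4) and 4 chemokine receptors (Cxcr4, Ccr1, Ccr2 and Cx3cr1). They were chosen by name: each of the 9 is the row of the expression table, 9 of 54532, whose Ensembl identifier carries that symbol in GENCODE M21. Messenger RNA was measured in bone marrow-derived macrophages of C57BL/6 mice, grown for 7 days with medium conditioned by L929 fibroblasts, which supplies macrophage growth factor. The cells were wild type (WT) or Trem2(-/-) (knockout, KO), and Trem2 is a receptor on macrophages that senses lipids. They were untreated or received one of a pair of agents for 24 hours, and each of the 6 groups had 4 libraries. S1P (sphingosine-1-phosphate, a lipid signal) was given at 500 nM. ACM, the conditioned medium of dying cells, was serum-free medium from AML12 mouse hepatocytes made apoptotic with 800 µM palmitate. The sources used here do not give the medium or any vehicle of untreated cells, nor the knockout allele. No group received palmitate alone or medium of healthy AML12 cells, so an agent and its carrier cannot be told apart.

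Chemokines are small secreted proteins that draw leukocytes along a gradient by binding receptors coupled to inhibitory G proteins. Cxcl2 and Cxcl3 belong to the group that attracts neutrophils through Cxcr2, and macrophages make them when NF-kB is active. Cxcl10 is induced by interferons and attracts activated T and NK cells through Cxcr3. Cxcl16 is made as a membrane protein, is shed by Adam10 and Adam17 as a ligand of Cxcr6, and also takes up oxidized lipid. Pf4 (platelet factor 4, Cxcl4) is best known from platelet granules and is also made by macrophages. Cxcr4 binds Cxcl12 and holds cells in the bone marrow, Ccr1 binds Ccl3, Ccl5, Ccl6, Ccl7 and Ccl9, Ccr2 binds Ccl2, Ccl7 and Ccl12 and brings monocytes out of the marrow, and Cx3cr1 binds fractalkine (Cx3cl1).

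Each library gave 16.6 to 25.2 M reads (M, 1e6), recovered from the deposited FPKM values (fragments per kilobase of exon, scaled to mapped fragments). The labels name no batch, animal or culture. The p-values therefore set a difference against the spread between libraries within groups, which may be technical. Every library labelled WT has a lower number than those labelled KO, and each treatment has its own block of numbers, so library order and group cannot be told apart. Core macrophage genes were high in every library, with a summed FPKM of 5530 to 10800 over 12 genes. The summed FPKM was at most 1.44 for 11 hepatocyte genes, at most 0.122 for 9 fibroblast genes and at most 0.41 for 11 lymphoid, mast or erythroid genes.

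The targeted gene checks the labels. Trem2 had an FPKM of 74.5 to 109 in the 12 WT libraries and 35.7 to 40.7 in 11 KO libraries. The library labelled KO untreated 81 had 79.6, inside the WT untreated range of 74.5 to 82.7, and went against its label. Over the genes tested, 23 of 24 libraries lay nearest to a group mean of their own genotype, and the library labelled KO untreated 81 was the exception. By group, 18 of 24 lay nearest to the mean of their own group. Of the 4 libraries labelled KO untreated, 0 did. Libraries 79 and 80 lay nearest to KO ACM, 82 to KO S1P and 81 to WT ACM. KO ACM library 86 lay nearest to KO S1P. WT S1P library 25 lay nearer to the WT ACM mean (root mean square log2 distance 0.227) than to that of WT S1P (0.238). The library labelled KO untreated 81 was inside the range of the other KO untreated libraries for Cxcl16 and Cx3cr1. For Cxcl16 it was also inside the WT S1P, KO ACM and KO S1P ranges. It fell inside the WT ACM range for Cxcl10, Pf4 and Ccr1, and outside every group's range for Cxcl2, Cxcl3, Cxcr4 and Ccr2. It is therefore shown apart, and the plot of differences gives each comparison of the 9 genes with and without it.

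Read by group, the 5 chemokines and 4 receptors fell into several patterns. In WT cells both agents raised Cxcl2 and lowered Pf4. Cxcl10 and Cxcl16 rose with ACM, and Cxcl3 rose with S1P. Cxcr4 moved in opposite directions, lower with ACM and higher with S1P, while Ccr1 and Ccr2 fell with S1P. In KO cells none of the 8 genes tested passed the threshold for either agent against untreated cells.

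These statements rest on limma, fitted once to log2(FPKM + 1) of 11377 genes in 24 libraries, with a call where p, adjusted by Benjamini-Hochberg over all genes, was under 0.05. Cx3cr1 did not reach the filter (FPKM of at least 1 in at least 4 libraries), so 8 of the 9 genes were tested. For WT ACM against WT untreated, 3 of the 8 were higher and 2 lower, while 22.1% of all genes tested were called, 12.2% higher and 9.85% lower. Without the library labelled KO untreated 81, Ccr1 was a further call and 24.9% of all genes were called. For WT S1P, 3 were higher and 3 lower, while 52.4% of all genes were called, 25.2% higher and 27.2% lower. With so many genes called in WT S1P cells, 6 calls among 8 genes do not by themselves mark these genes out.

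For KO ACM and for KO S1P against KO untreated, 0 of the 8 were called, and 0.00879% of all genes were called in each, which is 1 gene of 11377. At an unadjusted p under 0.05, 2 of the 8 genes differed for each agent. Without the library labelled KO untreated 81 the count stayed at 0 of 8, with 0.0439% of genes called for ACM and 0.185% for S1P. For KO ACM against KO S1P, 1 of the 8 was called (Cxcl2, higher), and 0.0352% of all genes, or 4, were called. The 3 others, named here after their values were seen, were Fos (an AP-1 subunit), Lilr4b and Tcirg1.

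Between the genotypes, 1 of the 8 was called in untreated cells (Cxcl2, lower in KO), with 2.47% of all genes called and 1.21% lower. Without the library labelled KO untreated 81, 3 were higher and 2 lower in KO, with 8.16% of all genes called, 4.13% higher and 4.03% lower. Under ACM, 3 were higher and 2 lower in KO, against 28% of all genes, 12.5% higher and 15.5% lower. Under S1P, 3 were higher and 2 lower, against 52.4% of all genes, 26.9% higher and 25.4% lower. The split of all calls depended on scaling. With values scaled to a common sum (TPM scaling), the share of calls that were higher went from 55.4 to 14.6% for WT ACM against untreated, from 50.9 to 18.6% for KO against WT untreated, from 44.6 to 63.4% for KO ACM against WT ACM and from 51.5 to 41.4% for KO S1P against WT S1P. It went from 55.4 to 37.7% for WT ACM against WT S1P and from 43.5 to 77.7% for the ACM interaction. With median scaling it was 61.2% for KO against WT untreated.

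**Figure D1:**
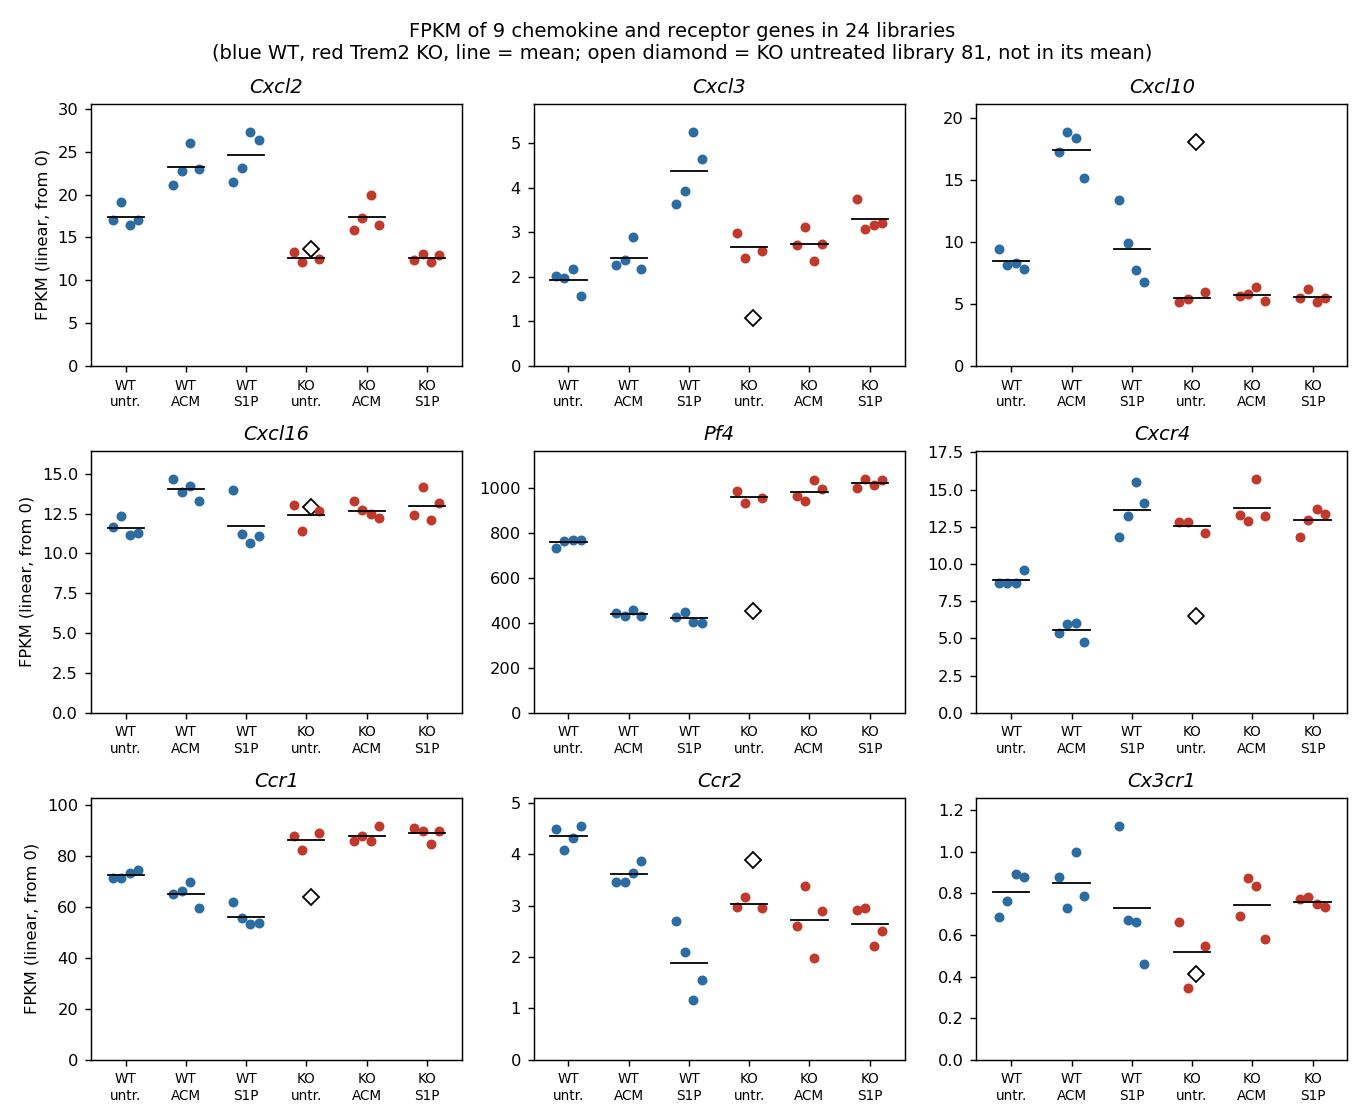
FPKM (linear axis from 0) of the 9 genes in each of 24 libraries, by group; blue points are WT and red points Trem2 KO libraries, lines are group means, and the open diamond is the library labelled KO untreated 81, left out of its group's line. Pf4 sits between 400 and 458 in treated WT cells and between 934.7 and 1041 in the other KO libraries, while the diamond is at 454.

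Cxcl2 (ENSMUSG00000058427, GRCm38 chromosome 5, 90903871 to 90905938, plus strand) was the member that both agents raised in WT cells. Its FPKM was 17.1, 19.1, 16.5 and 17.0 in WT untreated libraries 1 to 4. It was 21.2, 22.8, 26.01 and 23.01 in WT ACM libraries 19 to 22. It was 21.5, 23.1, 27.3 and 26.4 in WT S1P libraries 25 to 28. Neither treated group overlapped with untreated cells, and the treated groups overlapped with each other. Mean FPKM was 1.33-fold higher with ACM (log2 difference 0.40 ± 0.07, SE, limma adjusted p = 0.000661) and 1.41-fold higher with S1P (0.47 ± 0.07, adjusted p = 1.5e-05). The difference between the agents in WT cells was -0.07 (95% interval -0.23 to 0.08, adjusted p = 0.458).

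In KO cells Cxcl2 was lower. Its FPKM was 13.3, 12.08 and 12.51 in KO untreated libraries 79, 80 and 82 and 13.6 in the library labelled KO untreated 81. It was 15.8, 17.3, 19.9 and 16.4 in KO ACM libraries 85 to 88 and 12.4, 13.1, 12.2 and 12.98 in KO S1P libraries 91 to 94. The 4 KO ACM libraries all lay above the 8 other KO libraries, and the KO S1P libraries overlapped with the untreated ones. The difference for KO ACM against KO untreated was 0.40 ± 0.07 (adjusted p = 0.0599), the size seen in WT cells, and it was not called. Without the library labelled KO untreated 81 it was 0.43 ± 0.08 (adjusted p = 0.0593).

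That call turned on single choices: the adjusted p for KO ACM against KO untreated went below the threshold without WT S1P library 25 or 28, or with a filter at FPKM 5, and over all alternatives it ran from 0.0356 to 0.488. For KO ACM against KO S1P the difference was 0.42 ± 0.07 (adjusted p = 0.0335), and the call was lost when any of 12 of the 24 libraries was left out (WT untreated 3, WT ACM 21 or 22, KO untreated 79 or 82, KO ACM 86, 87 or 88, or KO S1P 91 to 94). The ACM by genotype interaction, which tests whether the ACM difference depends on genotype, was 0.01 ± 0.11 (95% interval -0.21 to 0.22, adjusted p = 0.982) for Cxcl2. The S1P by genotype interaction was -0.49 ± 0.11 (adjusted p = 0.000642), and -0.47 ± 0.11 with the library labelled KO untreated 81 left out (adjusted p = 0.00164). The S1P difference was thus lower in KO than in WT cells by more than the spread between libraries. Within KO cells the S1P difference was -0.02 ± 0.07 (adjusted p = 0.947), and no rise was seen. KO cells had less Cxcl2 than WT cells in each condition: -0.41 ± 0.07 untreated (adjusted p = 0.00509, and -0.43 ± 0.08 with the library labelled KO untreated 81 left out), -0.40 ± 0.07 with ACM (adjusted p = 0.00031) and -0.90 ± 0.07 with S1P (adjusted p = 2.39e-09).

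Cxcl3 (ENSMUSG00000029379, chromosome 5, 90786103 to 90789600, plus strand) lies 114 kb before Cxcl2 and was the member with the largest rise under S1P in WT cells. Its FPKM was 2.03, 1.97, 2.17 and 1.58 in WT untreated, 2.28, 2.38, 2.89 and 2.18 in WT ACM, and 3.65, 3.93, 5.26 and 4.64 in WT S1P libraries. The WT S1P group stood above the other WT groups with no overlap. Mean FPKM was 2.25-fold higher with S1P than untreated (log2 difference 0.86 ± 0.14, adjusted p = 2.25e-05), and 0.22 ± 0.14 on the log2 scale with ACM was not called (adjusted p = 0.282). The agents differed from each other in WT cells, by -0.64 ± 0.14 for ACM against S1P (adjusted p = 0.000933).

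In KO cells Cxcl3 was at 2.98, 2.42 and 2.59 FPKM untreated, 2.71, 3.12, 2.36 and 2.75 with ACM, and 3.74, 3.08, 3.16 and 3.21 with S1P. The library labelled KO untreated 81 had 1.07, the lowest of all 24. In untreated cells KO was above WT by 0.11 ± 0.14 (adjusted p = 0.73), and by 0.32 ± 0.10 without that library (adjusted p = 0.0504). Neither was called. KO S1P libraries lay above the untreated KO libraries, yet the difference of 0.44 ± 0.14 was not called (adjusted p = 0.288), nor was 0.23 ± 0.10 once the library labelled KO untreated 81 was left out (adjusted p = 0.473). Under S1P, KO was below WT by -0.31 ± 0.14 (adjusted p = 0.068), and without the library labelled KO untreated 81, whose values widen the shared error, the same difference had an SE of 0.09 and was called (adjusted p = 0.00615, with 53.9% of all genes called), as it was without WT S1P library 25, with TPM or median scaling, and with only the groups compared in the fit. The S1P interaction likewise went from -0.43 ± 0.20 (adjusted p = 0.092) to -0.63 ± 0.13 (adjusted p = 0.000702). Cxcl3 rests on 62 to 363 reads per library, and 4.29% of its 50-base windows occur in other genes, most of them in Cxcl2, so a part of its reads could be exchanged between the pair. Its exon length of 3498 bases covers retained introns, which lowers its FPKM against other genes. The same holds for Cxcl2 (2068 bases) and Cxcl10 (2252 bases), whose exon lengths also span the whole gene.

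Cxcl10 (ENSMUSG00000034855, chromosome 5, 92346638 to 92348889, minus strand) was the member with the largest rise under ACM in WT cells. Its FPKM was 9.44, 8.16, 8.32 and 7.78 in WT untreated and 17.3, 18.9, 18.3 and 15.1 in WT ACM libraries. In WT S1P libraries it was 13.3, 9.88, 7.70 and 6.78, which straddled the untreated range. The WT ACM group was above every other library except the one labelled KO untreated 81, at 18.0. Mean FPKM was 2.07-fold higher with ACM (log2 difference 0.96 ± 0.24, adjusted p = 0.00632), while with S1P the difference of 0.11 ± 0.24 was not called (95% interval -0.39 to 0.61, adjusted p = 0.737).

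In KO cells Cxcl10 was low in each condition. Its FPKM was 5.16, 5.36 and 5.93 untreated, 5.62, 5.78, 6.38 and 5.21 with ACM, and 5.50, 6.17, 5.12 and 5.45 with S1P. These 11 libraries lay below all 12 WT libraries, and the 3 KO groups overlapped with each other. Against WT, KO was lower by -1.45 ± 0.24 under ACM (adjusted p = 0.000104) and by -0.63 ± 0.24 under S1P (adjusted p = 0.0322). The S1P call was lost without WT S1P library 25 or 26, KO S1P library 91, 93 or 94, or with no filter, with an adjusted p of up to 0.121. It was kept without the library labelled KO untreated 81, where the same difference had an SE of 0.125 (adjusted p = 0.000211). In untreated cells the difference was -0.15 ± 0.24 (adjusted p = 0.8), and -0.54 ± 0.14 once the library labelled KO untreated 81 was left out (adjusted p = 0.0146). The ACM interaction was -1.30 ± 0.34 (adjusted p = 0.0115), and -0.91 ± 0.18 without that library (adjusted p = 0.00181). With it, KO ACM differed from KO untreated by -0.33 ± 0.24 (adjusted p = 0.736). Without it, the difference was 0.06 (95% interval -0.22 to 0.34, adjusted p = 0.961), an interval that does not reach the 0.96 seen in WT cells.

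The promoters of these 3 chemokines are printed because their genes rose with different agents, beside that of Pf4, which fell with both. Each comes from the 250 bases before the RefSeq start (GRCm38.p6), 5′ to 3′ on the gene's strand, with matches to 4 motifs in capitals. That of Cxcl2 was cut to 222 bases at the GENCODE start, which lies before the RefSeq start. The table of promoters held 8 of the 9 genes, Cxcl16 being the other. The stretches are chr5:90903649-90903870 (plus) for Cxcl2, chr5:90785851-90786100 (plus) for Cxcl3, chr5:92348890-92349139 (minus) for Cxcl10 and chr5:90772185-90772434 (plus) for Pf4.
Cxcl2: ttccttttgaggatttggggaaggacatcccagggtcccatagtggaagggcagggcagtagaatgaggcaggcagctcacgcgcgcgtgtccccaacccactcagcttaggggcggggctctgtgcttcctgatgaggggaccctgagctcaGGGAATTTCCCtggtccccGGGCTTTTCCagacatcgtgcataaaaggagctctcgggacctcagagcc
Cxcl3: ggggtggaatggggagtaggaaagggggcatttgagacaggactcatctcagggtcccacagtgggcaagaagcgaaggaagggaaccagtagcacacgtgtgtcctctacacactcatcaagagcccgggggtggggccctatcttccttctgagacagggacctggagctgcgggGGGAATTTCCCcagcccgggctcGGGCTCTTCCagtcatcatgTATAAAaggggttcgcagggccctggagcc
Cxcl10: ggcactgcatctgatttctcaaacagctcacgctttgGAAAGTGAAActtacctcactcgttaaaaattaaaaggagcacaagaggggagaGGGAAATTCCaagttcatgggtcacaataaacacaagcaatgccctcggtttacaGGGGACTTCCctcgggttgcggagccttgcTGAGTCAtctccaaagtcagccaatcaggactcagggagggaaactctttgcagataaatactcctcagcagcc
Pf4: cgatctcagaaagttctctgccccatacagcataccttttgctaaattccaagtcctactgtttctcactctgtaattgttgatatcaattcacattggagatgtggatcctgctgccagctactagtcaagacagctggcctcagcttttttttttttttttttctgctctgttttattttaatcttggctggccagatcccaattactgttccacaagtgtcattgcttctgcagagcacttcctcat

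The motifs, searched on both strands, were GGG and TTCC with any 3 bases between (the letters NF-kB binds), GAAA and GAAA with any 2 bases between (interferon response), TGANTCA (AP-1) and TATAAA, and they were chosen after the promoters had been read. The NF-kB letters occurred 3 times in the Cxcl2 promoter and 3 times in that of Cxcl3, each with a pair on opposite strands overlapping in GGGAATTTCCC, and 2 times in that of Cxcl10. Of 27025 promoters, 4.6% hold this motif within 250 bases before the start. The interferon letters, found in 3.04% of promoters, and TGANTCA, found in 6.87%, each occurred 1 time in the Cxcl10 promoter. TATAAA, found in 3504 of the 27025 promoters, occurred in Cxcl3 and Cxcr4. The Pf4, Ccr1, Ccr2 and Cx3cr1 promoters held none of the 4. TATTTAT, the core of AU-rich elements that shorten the life of mRNA, was counted on the transcript strand of the 3′ UTR: Cxcl2 held 7, Cxcl3 2, Ccr2 1 and the other members 0. Of 9976 genes kept with a 3′ UTR, of any length, 0.211% hold 6 or more. A match describes letters and is not a measured binding site.

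Cxcl16 (ENSMUSG00000018920, chromosome 11, 70453983 to 70459984, minus strand) varied least, with a coefficient of variation of 8.93% over 24 libraries. Its FPKM was 11.7, 12.4, 11.2 and 11.3 in WT untreated, 14.7, 13.9, 14.2 and 13.3 in WT ACM, and 14.0, 11.2, 10.7 and 11.1 in WT S1P libraries. The WT ACM group lay above WT untreated with no overlap, and WT S1P library 25 stood above the 3 other WT S1P libraries. In KO cells the range was 11.4 to 14.2 over the 3 groups, the library labelled KO untreated 81 included at 12.9. Mean FPKM was 1.21-fold higher with ACM in WT cells (log2 difference 0.25 ± 0.06, adjusted p = 0.00631), a call lost with values scaled to a common sum (0.14, adjusted p = 0.104). KO did not pass against WT in any condition, with adjusted p-values of 0.451 untreated, 0.119 with ACM and 0.076 with S1P. The last 2 passed without WT S1P library 25, the ACM one also with only the groups compared in the fit, and the S1P one also without KO S1P library 93. Of its 50-base windows, 16.9% occur in Zmynd15, which overlaps it, so reads of the pair cannot be told apart there.

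Pf4 (ENSMUSG00000029373, chromosome 5, 90772435 to 90773383, plus strand), 12.7 kb before Cxcl3, had the highest FPKM of the 9 genes and fell with both agents in WT cells. Its FPKM was 732, 762, 769 and 769 in WT untreated, 443, 429, 458 and 432 in WT ACM, and 426, 449, 403 and 400 in WT S1P libraries. The treated groups overlapped with each other and lay far below untreated cells. Mean FPKM was 0.581 of the untreated level with ACM (log2 difference -0.78 ± 0.15, adjusted p = 0.000705) and 0.553 of it with S1P (-0.85 ± 0.15, adjusted p = 4.56e-05). The coefficient of variation within these groups was 2.33 to 5.42%, so the fall was many times the spread between libraries.

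In KO cells Pf4 was higher than in every WT library. Its FPKM was 986.5, 934.7 and 956.3 untreated, 965, 940, 1033 and 995 with ACM, and 1001, 1041, 1012 and 1035 with S1P. The library labelled KO untreated 81 had 454, inside the WT ACM range. KO exceeded WT by 1.16 ± 0.15 under ACM (adjusted p = 7.53e-06) and by 1.28 ± 0.15 under S1P (adjusted p = 2.33e-07). In untreated cells the difference was 0.07 ± 0.15 (adjusted p = 0.854), and 0.34 ± 0.04 once the library labelled KO untreated 81 was left out (adjusted p = 5.49e-06). Both interactions were called, at 1.09 ± 0.21 for ACM (adjusted p = 0.00123) and 1.22 ± 0.21 for S1P (adjusted p = 7.48e-05). Without that library they were 0.82 ± 0.05 and 0.95 ± 0.05, and the KO treatment differences were 0.04 (95% interval -0.05 to 0.12) for ACM and 0.09 (0.01 to 0.17) for S1P, neither called. With it they were 0.30 ± 0.15 (adjusted p = 0.549) and 0.36 ± 0.15 (adjusted p = 0.399).

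Pf4 is also a platelet gene, and Mmp8, a granulocyte gene, was lower wherever Pf4 fell, so the marker lists are given beside it; their part in its result was not tested. The summed FPKM of 12 platelet and megakaryocyte genes was 23.3 to 30.3 in WT untreated, 17.4 to 22.1 in WT ACM, 24.6 to 28.4 in WT S1P and 49.5 to 55.5 in the 11 other KO libraries, with 13.2 in the library labelled KO untreated 81. Ppbp (another platelet CXC chemokine), Vwf and Treml1 were the 3 of 12 that passed the filter. The defining platelet gene Gp1bb was at 0 in all libraries, Gp9, Gp5, Gp6 and Itga2b were at most 0.239, and Gp1ba was at most 0.508. Of 12 granulocyte genes, whose sum was 78.5 to 87.4 in WT untreated, 27.1 to 32.3 in WT ACM, 26.1 to 28.5 in WT S1P and 117 to 130 in the same 11 KO libraries, most of the sum was Mmp8 (11.04 to 102). With ACM in WT cells 1 of the 6 granulocyte genes tested (Mmp8) fell and 0 rose, where 9.85% of all genes were lower. With S1P 2 fell and 0 rose, where 27.2% of all genes were lower. Of the 3 platelet genes tested 0 fell with either agent, and 1 (Vwf) rose with S1P, where 25.2% of all genes were higher. Once the library labelled KO untreated 81 was left out, 1 (Ppbp) fell with each agent. Of 11377 genes 1253 were then lower with ACM and 3184 with S1P. The granulocyte genes S100a8, S100a9, Ngp and Csf3r were not called for either agent in WT cells. Between the genotypes, 5 of the 6 granulocyte genes were higher in KO and 0 lower under ACM, where 12.5% of all genes were higher. Under S1P 5 were higher and 1 lower, where 26.9% of all genes were higher and 25.4% lower. Of the 3 platelet genes, 2 were higher and 0 lower in KO under ACM, and 2 higher and 1 lower under S1P. Ly6g was at most 0.299 and Retnlg at most 0.203. In bulk RNA, fewer cells of a type and less RNA per cell cannot be told apart, here and in all that follows.

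Cxcr4 (ENSMUSG00000045382, chromosome 1, 128588199 to 128592293, minus strand) separated the agents in WT cells. Its FPKM was 8.74, 8.71, 8.71 and 9.61 in WT untreated, 5.39, 5.98, 6.06 and 4.77 in WT ACM, and 11.8, 13.2, 15.5 and 14.1 in WT S1P libraries. The 3 WT groups did not overlap. Mean FPKM was 0.621 of the untreated level with ACM (log2 difference -0.61 ± 0.14, adjusted p = 0.00271) and 1.53-fold higher with S1P (0.56 ± 0.14, adjusted p = 0.00149). ACM against S1P differed by -1.16 ± 0.14 (adjusted p = 1.26e-06).

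In KO cells Cxcr4 was near the WT S1P level in each condition. Its FPKM was 12.8, 12.8 and 12.1 untreated, 13.3, 12.9, 15.7 and 13.2 with ACM, and 11.8, 12.96, 13.7 and 13.4 with S1P, while the library labelled KO untreated 81 had 6.50. KO exceeded WT under ACM by 1.18 ± 0.14 (adjusted p = 2.37e-06), a 2.49-fold difference in mean FPKM. Under S1P the difference was -0.07 (95% interval -0.35 to 0.22, adjusted p = 0.715). Untreated, it was 0.24 ± 0.14 (adjusted p = 0.398), and 0.45 ± 0.08 once the library labelled KO untreated 81 was left out (adjusted p = 0.000983). The ACM interaction was 0.94 ± 0.19 (adjusted p = 0.00179), and 0.73 ± 0.11 without that library (adjusted p = 0.000101). The S1P interaction was -0.30 ± 0.19 (adjusted p = 0.219), and -0.52 ± 0.11 without that library (adjusted p = 0.000684). Its ligand Cxcl12 was at most 0.0195 FPKM in any library.

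Ccr1 (ENSMUSG00000025804, chromosome 9, 123962124 to 123968692, minus strand) was the receptor with the highest FPKM. It was at 71.4, 71.2, 73.2 and 74.2 in WT untreated, 65.2, 66.3, 69.8 and 59.3 in WT ACM, and 62.0, 55.7, 53.3 and 53.5 in WT S1P libraries. Both treated groups lay below untreated cells with no overlap. The fall with S1P was called (log2 difference -0.37 ± 0.07, adjusted p = 0.000246). The ACM difference of -0.15 ± 0.07 was not (adjusted p = 0.143), and it was called once the library labelled KO untreated 81 was left out (-0.15 ± 0.05, adjusted p = 0.0206). WT ACM exceeded WT S1P by 0.21 ± 0.07 (adjusted p = 0.0254), a call lost without WT ACM library 20 or 21 or WT S1P library 27 or 28, with no filter, and with values scaled to a common sum or quantile normalized. It was kept without the library labelled KO untreated 81, where the same difference had an SE of 0.05 (adjusted p = 0.000973).

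In KO cells Ccr1 was higher, at 87.6, 82.3 and 88.9 untreated, 85.9, 87.9, 85.8 and 91.8 with ACM, and 90.99, 89.7, 84.7 and 89.8 with S1P. The library labelled KO untreated 81, at 63.7, was inside the WT ACM range. The KO groups overlapped with each other and lay above all WT libraries. KO exceeded WT by 0.43 ± 0.07 under ACM (adjusted p = 0.000152) and 0.65 ± 0.07 under S1P (adjusted p = 1.77e-07). Untreated, the difference of 0.14 ± 0.07 (adjusted p = 0.358) became 0.25 ± 0.05 once the library labelled KO untreated 81 was left out (adjusted p = 0.00361). The S1P interaction was 0.51 ± 0.10 (adjusted p = 0.000405), and 0.41 ± 0.07 without that library (adjusted p = 7.91e-05). The ACM interaction of 0.29 ± 0.10 was not called (adjusted p = 0.0613), nor was 0.18 ± 0.07 without that library (adjusted p = 0.0869). It passed without WT S1P library 25 or KO untreated library 79 or 82, with a filter at FPKM 5, and with TPM scaling or quantile normalization.

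Ccr2 (ENSMUSG00000049103, chromosome 9, 124101950 to 124113557, plus strand), the monocyte receptor 133 kb from Ccr1, fell with S1P in WT cells. Its FPKM was 4.49, 4.08, 4.32 and 4.56 in WT untreated, 3.46, 3.47, 3.64 and 3.86 in WT ACM, and 2.70, 2.10, 1.16 and 1.55 in WT S1P libraries. The 3 WT groups did not overlap, and WT S1P was the most uneven, with a coefficient of variation of 35.6%. Mean FPKM with S1P was 0.43 of the untreated level (log2 difference -0.93 ± 0.13, adjusted p = 2.29e-06). With ACM the difference was -0.22 ± 0.13 (adjusted p = 0.234).

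In KO cells Ccr2 was at 2.98, 3.17 and 2.95 FPKM untreated, 2.60, 3.39, 1.98 and 2.90 with ACM, and 2.92, 2.96, 2.21 and 2.51 with S1P, and the library labelled KO untreated 81 had 3.89. The untreated KO libraries were below the WT untreated range and the KO groups overlapped with each other. KO against WT was -0.34 ± 0.13 untreated (adjusted p = 0.163, and -0.41 ± 0.13 with the library labelled KO untreated 81 left out, adjusted p = 0.0628), -0.32 ± 0.13 with ACM (adjusted p = 0.0618) and 0.37 ± 0.13 with S1P (adjusted p = 0.0185). The sign under S1P was thus opposite to that in the other conditions, of which neither was called. The S1P call was lost without WT S1P library 27 or 28 or KO S1P library 91 or 92, or with only the groups compared in the fit. The ACM difference was called without WT S1P library 25 or 27 or KO ACM library 86, or with only those groups in the fit. The S1P interaction was 0.71 ± 0.18 (adjusted p = 0.00285), and 0.78 ± 0.18 without that KO untreated library (adjusted p = 0.00164). KO S1P against KO untreated was at -0.22 ± 0.13 (adjusted p = 0.582), and -0.15 ± 0.13 without it (adjusted p = 0.832). The summed FPKM of 8 monocyte genes was 58.6 to 63.7 in WT untreated, 53.5 to 57.7 in WT ACM and 33.2 to 49.6 in WT S1P libraries. It was 71.6 to 73.2 in the other KO untreated, 64.1 to 72.8 in KO ACM and 73.2 to 77.3 in KO S1P libraries. The sum was thus lower with S1P in WT cells, as Ccr2 was. In untreated and ACM-treated cells the sum was higher in KO than in WT, while Ccr2 had a lower mean in KO. The part of these genes in the Ccr2 result was not tested.

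Cx3cr1 (ENSMUSG00000052336, chromosome 9, 119901616 to 120069879, minus strand) was near the limit of detection, with 28 to 115 reads and 0.346 to 1.13 FPKM per library. Its mean FPKM in WT cells was 0.805 ± 0.0989 untreated, 0.85 ± 0.117 after ACM and 0.732 ± 0.281 after S1P (SD, n = 4). For KO untreated cells it was 0.518 ± 0.16 without the library labelled KO untreated 81 (SD, n = 3) and 0.415 in that library, and treated KO cells had 0.745 ± 0.137 after ACM and 0.761 ± 0.0221 after S1P (SD, n = 4). The 4 libraries labelled KO untreated were all below the 4 WT untreated and the 4 KO S1P libraries. Exact 2-sided permutation tests of log2(FPKM + 1) gave p = 0.0286, the smallest possible with 4 against 4, for each of these 2 comparisons, and 0.129 after adjustment over 9 comparisons. Without the library labelled KO untreated 81 the exact p was 0.0571, the smallest possible with 4 against 3. The 7 other comparisons had exact p-values from 0.0571 to 0.886.

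**Figure D2:**
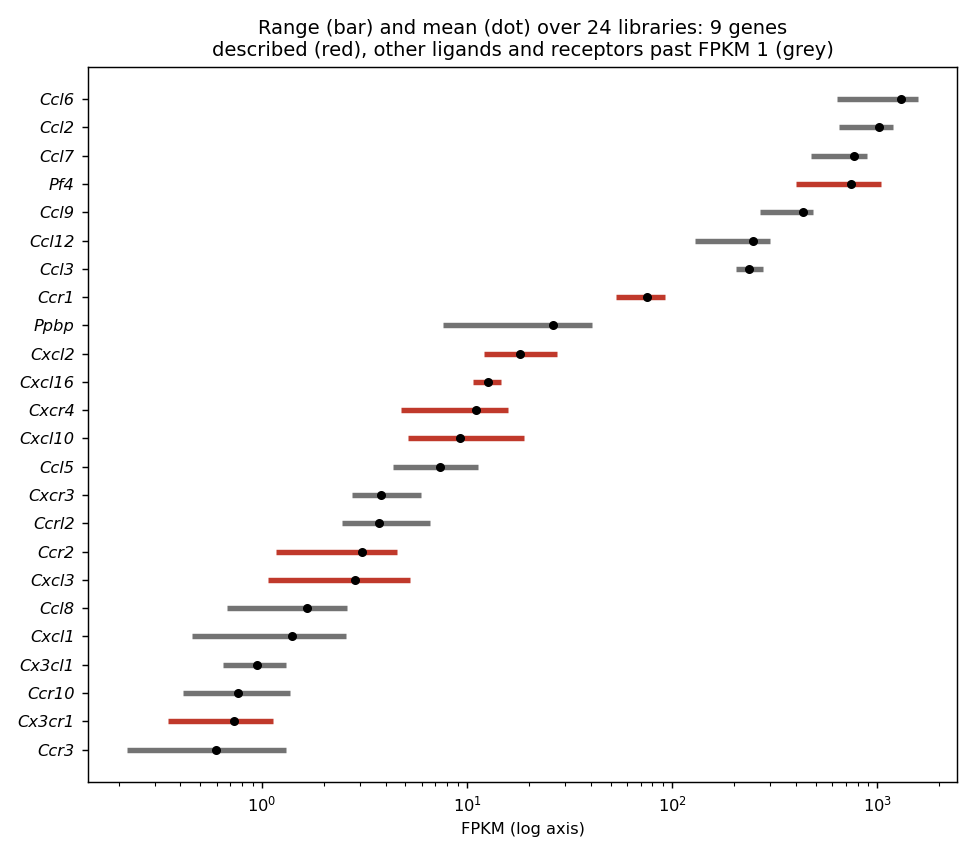
FPKM on a log axis of the 9 genes described (red) and 15 other chemokine ligands and receptors, among those that reached FPKM 1 in a library (grey); bars run from the lowest to the highest of 24 libraries and dots are means. Pf4, with a mean of 743, lies among the CC ligands Ccl6, Ccl2, Ccl7 and Ccl9, and Ccr1, at 75.2, is the highest receptor drawn.

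Ordered by mean FPKM over 24 libraries, which is per length of exon, Pf4 (743) was followed by Ccr1 (75.2), Cxcl2 (18.0), Cxcl16 (12.6), Cxcr4 (11), Cxcl10 (9.20), Ccr2 (3.08), Cxcl3 (2.84) and Cx3cr1 (0.731). The values of Cxcl2, Cxcl3 and Cxcl10 are lowered by exon lengths that cover retained introns. The lowest Pf4 library was above the highest Ccr1 library, and the lowest Ccr1 library above the highest Cxcl2 library. Cxcl2, Cxcl16, Cxcr4 and Cxcl10 overlapped with each other over the 24 libraries, as did Ccr2 and Cxcl3. The receptors of the ligands described were low in these cells: Cxcr2, for Cxcl2 and Cxcl3, was at most 0.0792 FPKM and Cxcr6, for Cxcl16, at most 0.166, while Cxcr3, for Cxcl10, was at 2.74 to 5.96.

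**Figure D3:**
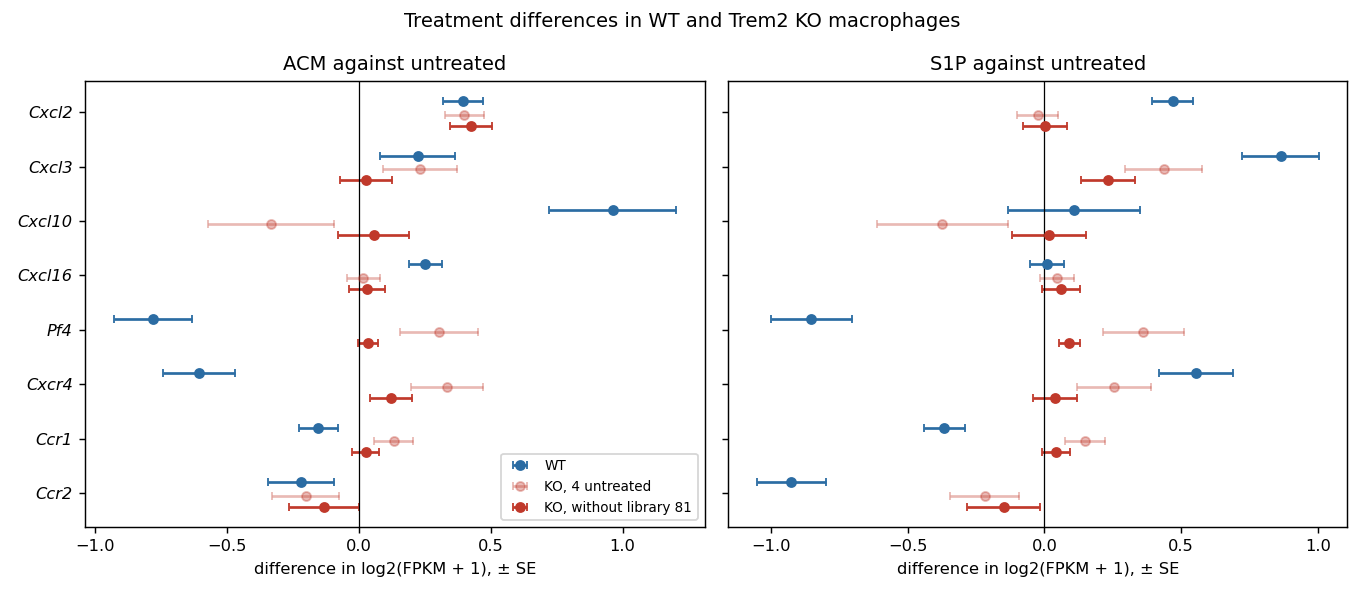
Treatment differences in log2(FPKM + 1) with SE for the 8 genes tested, ACM on the left and S1P on the right; blue is WT, pale red is KO with 4 untreated libraries and full red KO without the library labelled KO untreated 81. Pf4 is at -0.78 and -0.85 in WT and at 0.04 and 0.09 in KO without that library, while Cxcl2 with ACM is at 0.40 and 0.43.

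Set side by side, KO treatment differences were compared with the library labelled KO untreated 81 left out. The largest among the 8 genes tested was that of Cxcl2 under ACM. Its 0.43 (95% interval 0.26 to 0.59) was followed by Cxcl3 under S1P, at 0.23 (0.03 to 0.44), and neither was called. The rest ran from -0.15 (Ccr2 with S1P) to 0.12 (Cxcr4 with ACM). Cx3cr1, outside the fit, was at 0.20 with ACM and 0.22 with S1P. The interactions test whether a treatment difference depends on genotype (KO minus WT). For ACM the term was positive for Pf4 and Cxcr4 and negative for Cxcl10. These were 3 calls among 8 genes where 17.1% of all genes were called, 7.41% positive and 9.64% negative (14.9% called without that library). For S1P it was positive for Pf4, Ccr1 and Ccr2 and negative for Cxcl2. These were 4 of 8 where 41.9% of all genes were called, 22.5% positive and 19.4% negative. Without that library Cxcl3 and Cxcr4 were further calls, both negative, making 6 of 8 where 41.5% of all genes were called. WT ACM against WT S1P gave 6 calls among the 8 genes, with 41.5% of all genes called, 23% higher and 18.5% lower. Cxcl10, Cxcl16, Ccr1 and Ccr2 were higher with ACM, and Cxcl3 and Cxcr4 were higher with S1P. Comparisons in WT cells share the untreated libraries, as do those in KO cells.

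**Figure D4:**
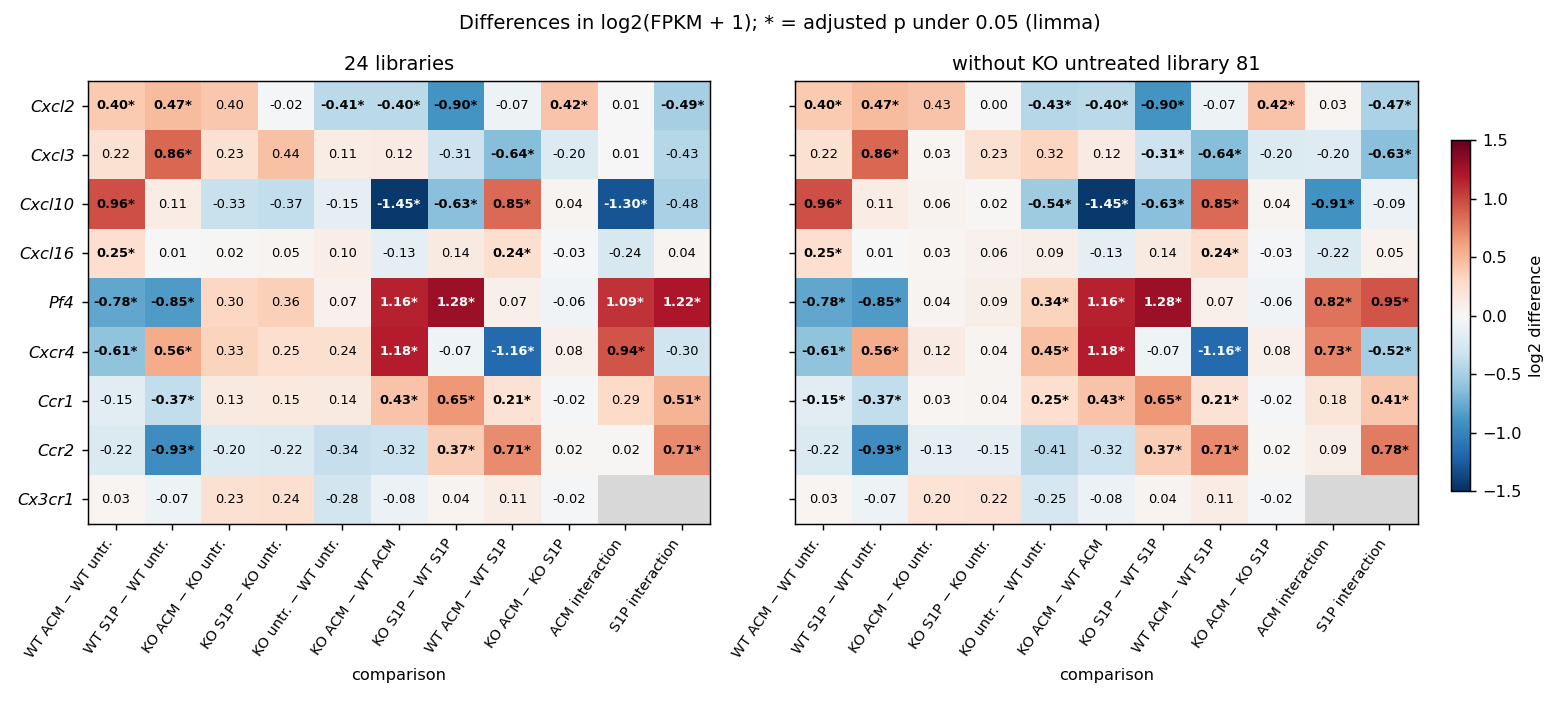
Differences in log2(FPKM + 1) for 9 genes (rows) and 11 comparisons (columns), with 24 libraries on the left and without the library labelled KO untreated 81 on the right; stars and bold mark calls at an adjusted p under 0.05, Cx3cr1 was tested by permutation and grey cells were not tested. Leaving that library out adds 4 calls for KO against WT untreated cells, for Cxcl10, Pf4, Cxcr4 and Ccr1.

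Other CXC, CX3C and XC ligands were mostly absent, and 3 of 12 passed the filter: Cxcl1, Ppbp and Cx3cl1. Cxcl1, a neutrophil attractant like Cxcl2, was lower in KO cells in each condition, by -0.59 ± 0.13 untreated (adjusted p = 0.0207, and -0.75 ± 0.12 with the library labelled KO untreated 81 left out), -0.79 ± 0.13 with ACM (adjusted p = 0.000124) and -1.12 ± 0.13 with S1P (adjusted p = 4.08e-07). Ppbp was higher in KO cells with ACM, by 1.45 ± 0.30 (adjusted p = 0.00099), and with S1P, by 1.17 ± 0.30 (adjusted p = 0.0025). For either agent in WT cells, 0 of the 3 were called, where 22.1% of all genes were called for ACM and 52.4% for S1P. With the library labelled KO untreated 81 left out 1 was called for ACM, where 24.9% of all genes were. For S1P 2 were then called, where 2993 of all 11377 genes were higher and 3184 lower. These were Ppbp with ACM (-0.61 ± 0.10, adjusted p = 0.00013) and with S1P (-0.33 ± 0.10, adjusted p = 0.0101), and Cxcl1 with S1P (0.31 ± 0.11, adjusted p = 0.0215). The median difference of the 3 for KO against WT under S1P was 0.04 on the log2 scale, and 0.00 over all genes tested.

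Among 19 other chemokine receptors 5 passed the filter. With ACM in WT cells 3 of the 5 rose and 0 fell, where 12.2% of all genes were higher, with a median of 0.35 beside 0.00 over all genes: Cxcr3, the Cxcl10 receptor, by 0.54 ± 0.09 (adjusted p = 0.000287), Ccrl2, a non-signalling receptor that binds chemerin, by 0.68 ± 0.13 (adjusted p = 0.000728), and Ccr3, the eotaxin receptor, by 0.35 ± 0.13 (adjusted p = 0.0494). With S1P in WT cells, Ccrl2 rose by 0.80 ± 0.13 (adjusted p = 1.9e-05) and Cxcr3 by 0.48 ± 0.09 (adjusted p = 0.00017). Under ACM, Cxcr3 (-0.69 ± 0.09, adjusted p = 1.25e-05) and Ccr3 (-0.71 ± 0.13, adjusted p = 0.000212) were lower in KO than in WT cells. Under S1P, Cxcr3 (-0.55 ± 0.09, adjusted p = 3.95e-05) and Ccrl2 (-0.74 ± 0.13, adjusted p = 4.92e-05) were lower in KO.

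The 8 CC ligands of Ccr1 and Ccr2 were all above the filter, and Ccl2, Ccl6 and Ccl7 were among the most abundant chemokines, with means of 1019, 1299 and 769 FPKM. With S1P in WT cells 6 of 8 fell and 1 rose, with a median of -0.50, where 27.2% of all genes were lower and 25.2% higher. Ccl6 was at -0.97 ± 0.09 (adjusted p = 6.52e-09), Ccl7 at -0.54 ± 0.06 (adjusted p = 2.42e-07) and Ccl9 at -0.60 ± 0.07 (adjusted p = 4.53e-07). Ccl5, a T cell and monocyte attractant, was the one that rose. Ccl8 was not called (-0.16 ± 0.20, adjusted p = 0.538). With ACM in WT cells 2 rose and 1 fell: Ccl5 by 0.99 ± 0.13 (adjusted p = 1.76e-05) and Ccl12 by 0.29 ± 0.10 (adjusted p = 0.0346), with Ccl6 at -0.24 ± 0.09 (adjusted p = 0.0473). For KO against WT under S1P 6 of 8 were higher, with a median of 0.58, where 26.9% of all genes were higher, and under ACM 1 was higher and 1 lower, where 28% of all genes were called.

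Of 28 genes of chemokine receptor signalling (G proteins, arrestins, receptor kinases, RGS proteins and downstream enzymes) 27 were tested. With S1P in WT cells 17 fell and 3 rose, with a median of -0.13, where 27.2% of all genes were lower and 25.2% higher. Pik3cg, the PI3-kinase catalytic subunit driven by G proteins, was at -0.92 ± 0.09 (adjusted p = 1.02e-08), and Rgs10, which ends G protein signals, at -0.60 ± 0.06 (adjusted p = 4.16e-08). Pik3r5, a regulatory subunit of the same kinase, rose by 0.44 ± 0.04 (adjusted p = 1.58e-08). With ACM 5 rose and 5 fell, where 22.1% of all genes were called. For KO against WT, 16 were higher and 3 lower under S1P, where 52.4% of all genes were called, and 6 were higher and 6 lower under ACM, where 28% were.

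Of 8 genes whose proteins cleave chemokines 5 were tested. Mmp8, neutrophil collagenase, and Mmp9, gelatinase B, moved in opposite directions. Mmp8 was at -1.96 ± 0.30 with ACM (adjusted p = 7.76e-05) and -2.39 ± 0.30 with S1P (adjusted p = 6.12e-07) in WT cells, and Mmp9 at 2.13 ± 0.34 (adjusted p = 0.000135) and 1.63 ± 0.34 (adjusted p = 0.000329). With S1P, Mmp12, macrophage elastase, rose by 0.70 ± 0.11 (adjusted p = 1.49e-05) and Adam17, which sheds Cxcl16, was at -0.23 ± 0.04 (adjusted p = 2.75e-05). With ACM 1 rose and 1 fell, and with S1P 2 rose and 2 fell, where 22.1% and 52.4% of all genes were called. For KO against WT 2 were higher and 1 lower under ACM, and 3 were higher and 2 lower under S1P, where 28% and 52.4% of all genes were called.

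Of 21 regulators of chemokine transcription and mRNA decay 20 were tested. With ACM in WT cells 8 rose and 0 fell, with a median of 0.08, where 12.2% of all genes were higher. The first by adjusted p were Irf7, an interferon regulatory factor (1.05 ± 0.14, adjusted p = 2.99e-05), and Nfkb2, an NF-kB subunit (0.19 ± 0.03, adjusted p = 0.000542). The third by adjusted p was Nfkbiz, an NF-kB cofactor (0.27 ± 0.05, adjusted p = 0.00122). With S1P 7 rose and 3 fell, where 52.4% of all genes were called, among them Nfkb2 (0.37 ± 0.03, adjusted p = 9.99e-09), Zfp36l1, which promotes decay of AU-rich mRNAs (-1.11 ± 0.09, adjusted p = 2.72e-09), and Zc3h12a, an RNase that degrades cytokine mRNAs (0.93 ± 0.11, adjusted p = 2.8e-07). For KO against WT 9 were lower and 0 higher under ACM, where 15.5% of all genes were lower. Under S1P 8 were lower and 3 higher, near the 52.4% of all genes called.

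The 3 genes whose log2(FPKM + 1) followed each member most closely over 24 libraries were found by Pearson's r, which here reflects 6 groups that share libraries and depth and is a description. For Pf4 they were Ifitm1 (r = 0.992), Mmp8 (0.986) and Entpd1 (0.986). For Cxcl10 they were Cmpk2 (0.98), Cybb (0.978) and Phf11a (0.977), and for Ccr1 Il1r2 (0.978), Ssh2 (0.977) and Snx6 (0.976). For Cxcr4 the closest were Mfsd6 (0.945), Arl4c (0.919) and Clec4n (0.908), for Ccr2 Rasgrp3 (0.936), Frmd6 (0.933) and Mgl2 (0.91), and for Cxcl3 Cuedc1 (0.908), Slc43a2 (0.902) and Cd276 (0.897). Cxcl2 was followed by Parp3 (0.904), Cdk5rap3 (0.899) and Dusp1 (0.897). The lowest were those of Cxcl16, with Stx7 (0.812), Itpr3 (0.807) and Arhgef2 (0.801).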

How the data were processed

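The deposited table holds 1 FPKM column for each of 24 libraries, made by the authors from oligo(dT)-selected RNA. Per the submitters' processing notes the tools were, in no stated order, StringTie, featureCounts, STAR, STAR-Fusion, HISAT2, DESeq and edgeR, with builds mm10 and GRCm38. The sources used here do not give their roles, versions or strand settings. Of 54532 Ensembl identifiers 54409 were matched to GENCODE M21. Whole reads were recovered from FPKM steps for 96.4 to 96.7% of values (tolerance 0.05), giving 16.6 to 25.2 M reads per library, and were used to describe depth. The more reads a gene has, the smaller its counting error.

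Differences were fitted with limma 3.58.1 (R 4.3.3) with a mean-variance trend on log2(FPKM + 1), for genes at FPKM 1 or more in at least 4 libraries (11377), with the 6 group means in 1 model. Fold changes on this scale understate those of low genes. Benjamini-Hochberg adjustment covered all genes, in each of 11 comparisons, with a call under 0.05. Intervals are 95% and per gene. Cx3cr1 was tested by exact 2-sided permutation. The 36 within-group pairs of libraries differed by more than counting error (chi-square per degree of freedom 2.79 to 22.3). The fit was tested on simulated data. Alternatives changed the filter, pseudocount, scaling, groups in the fit and libraries. The genes, gene lists and motif letters were chosen with earlier results of these data known. Genes named were the 9 members, the 3 most correlated with each, and up to 3 per list with the smallest adjusted p, plus those said to be chosen later. Results for some genes of the lists are not reported here.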

Additional observations from a re-analysis of the deposited data

Results flagged for a closer look

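In 5 of 54 gene and group combinations the highest or lowest of 4 libraries stood apart (gap over range above Dixon's critical value), where chance gives about 1 in 20. Of these 5, 3 were the library labelled KO untreated 81, with Cxcl10 at 18.0 FPKM, Pf4 at 454 and Cxcr4 at 6.5, against its group's other libraries at 5.16 to 5.93, 934.7 to 986.5 and 12.1 to 12.8. The others were Cxcr4 in WT untreated library 4, at 9.61 FPKM, and in KO ACM library 87, at 15.7.

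The response to treatment differed between genotypes, tested by limma interaction terms (KO minus WT, log2 scale), in 7 cases. For ACM the difference was -1.30 for Cxcl10, 1.09 for Pf4 and 0.94 for Cxcr4. For S1P it was -0.49 for Cxcl2, 1.22 for Pf4, 0.51 for Ccr1 and 0.71 for Ccr2. Each was called with and without the library labelled KO untreated 81.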

How the results depend on the processing

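No member's call reversed in direction under any alternative. For KO ACM against KO untreated, the count of members called went from 0 to 1 with a filter at FPKM 5, and ranged from 0 to 1 when each library was left out in turn. For KO ACM against KO S1P it went from 1 to 0 with no filter, with values scaled to a common sum (TPM scaling), with quantile normalization and with median scaling, and ranged from 0 to 1 on leaving out libraries. Leaving out each library gave 1 to 5 for KO against WT untreated (5 without the library labelled KO untreated 81), 3 to 6 for KO S1P against WT S1P (3 without KO S1P 91), 5 to 7 for KO ACM against WT ACM, 3 to 5 for the ACM interaction (5 without WT S1P 25) and 4 to 6 for the S1P interaction. Against WT untreated it gave 5 to 6 for ACM and 6 for S1P, and 5 to 6 for WT ACM against WT S1P. The cause was not tested.

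Over all genes, KO against WT untreated went from 281 calls to 33 with only the groups compared in the fit, and to between 112 and 928 on leaving out a library. KO ACM against KO untreated had 1 call, and 2 with no filter, 8 at FPKM 5, 4 with quantile normalization, 3 with median scaling, and 0 with TPM scaling or only the groups compared. KO S1P against KO untreated had 1, and 3 at FPKM 5 and 0 with TPM scaling or only those groups. KO ACM against KO S1P had 4, and 16 with only those groups. The shift of the median gene under TPM scaling reached -0.0987 on the log2 scale, for WT ACM against untreated.

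The low genes Cxcl3, Ccr2 and Cx3cr1 are limited by depth, with 62 to 363, 155 to 607 and 28 to 115 reads. For Cx3cr1, limma with no filter, an alternative chosen after seeing the data, called no comparison. No paired analysis was possible because the groups share no replicate numbers.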
